A study of Homo sapiens with 12 samples.

Results

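GRHL1, GRHL2, GRHL3, OVOL1, OVOL2, TP63, ELF3, EHF, ESRP1 and ESRP2 are transcription factors and splicing regulators of epithelial identity. These 10 genes were taken by name from the 26364 genes of the tables, and all 10 were found in every table. RNA was sequenced from HMLE cells, human mammary epithelial cells that were immortalised in culture, in 4 groups with 3 libraries each. The groups were HMLE-Twist cells treated with salinomycin, mock-treated HMLE-Twist cells, HMLE-pBp cells treated with salinomycin and mock-treated HMLE-pBp cells. HMLE-Twist is labelled as the line that has passed through an epithelial to mesenchymal transition (EMT) and HMLE-pBp as the line that has not, and both share the HMLE background and the same medium. Salinomycin, an ionophore that carries potassium across membranes, was given at 0.2 uM for 24 h, and the mock was its solvent DMSO. The labels call the libraries biological triplicates and do not say how the cultures were separated, nor whether each line is a clone or a pool. The comparisons ask which of these genes differ between the lines and which respond to the drug in each.

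In epithelia these genes act in layers. GRHL and OVOL proteins bind DNA and keep junction genes on, in part by opposing ZEB1, a repressor of epithelial genes. p63, the product of TP63, maintains basal and stratified epithelium, ELF3 and EHF are ETS factors found mainly in epithelia, and ESRP1 and ESRP2 bind RNA and set the epithelial choice of exons in genes such as FGFR2 and CD44. TWIST1, SNAI and ZEB factors bind short DNA words called E-boxes, written CANNTG.

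Because these factors read such words, promoters are shown for GRHL1, which differed least between the lines, and for GRHL3 and ELF3, the 2 matched genes whose stretch holds CACCTG. RefSeq promoter sequence (GRCh38.p14) was matched for 5 of the 10 genes, namely GRHL1, GRHL3, TP63, ELF3 and EHF. GRHL2, OVOL1, OVOL2, ESRP1 and ESRP2 had no entry. Each stretch below holds the 250 bases before the gene's annotated start, on the plus strand, 5′ to 3′, with every CANNTG in capitals. GRHL1 lies at chr2:9951443-9951692, GRHL3 at chr1:24319107-24319356, the first of its 2 annotated starts, and ELF3 at chr1:202010337-202010586.
GRHL1: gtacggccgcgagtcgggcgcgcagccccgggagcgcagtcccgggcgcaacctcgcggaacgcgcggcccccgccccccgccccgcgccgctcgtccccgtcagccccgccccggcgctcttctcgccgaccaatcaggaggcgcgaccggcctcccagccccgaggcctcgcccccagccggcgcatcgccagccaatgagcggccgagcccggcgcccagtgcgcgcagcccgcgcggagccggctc
GRHL3: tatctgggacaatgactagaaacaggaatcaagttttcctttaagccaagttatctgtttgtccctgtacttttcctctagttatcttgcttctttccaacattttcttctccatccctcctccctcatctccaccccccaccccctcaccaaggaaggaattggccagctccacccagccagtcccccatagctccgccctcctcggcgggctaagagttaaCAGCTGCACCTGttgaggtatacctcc
ELF3: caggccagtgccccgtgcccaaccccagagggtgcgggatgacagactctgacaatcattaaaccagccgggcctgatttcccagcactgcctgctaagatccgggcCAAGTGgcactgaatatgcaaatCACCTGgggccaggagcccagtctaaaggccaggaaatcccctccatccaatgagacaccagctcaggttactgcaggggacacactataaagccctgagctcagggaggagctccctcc

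GRHL1 held no CANNTG in this stretch, and 81.6% of its bases were G or C, more than in 98.0% of the promoter stretches in the table. GRHL3 held CAGCTG and CACCTG side by side, 27 and 21 bases before the start. The stretch before its other start, chr1:24322790-24323039, held CATCTG 227 bases before it and no other such word. ELF3 held CAAGTG and CACCTG, 143 and 120 bases before it. CACCTG, which is CAGGTG on the other strand, was searched on both strands and occurred in 17.5% of 35116 promoter stretches of this length. CANNTG, which includes it, occurred in 61.8% of them. The TP63 stretch, chr3:189631139-189631388, held 3 CANNTG words and each of the EHF starts held 1, with no CACCTG in any of them. Other starts of TP63 were not searched. A match describes the letters only, and these data hold no measurement of binding.

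Levels are given as FPKM, read pairs scaled to transcript length and library size, rebuilt for all 12 libraries from recovered whole reads. Libraries held 17913154 to 26734977 recovered reads. TWIST1, after which HMLE-Twist is named, lay at 505 to 1187 FPKM in the 6 HMLE-Twist libraries and at 1.83 to 2.55 FPKM in the 6 HMLE-pBp libraries. Within HMLE-Twist its level was highest in replicate 3, at 1187 FPKM under salinomycin and 1112 FPKM under mock, against 505 to 853 FPKM in the other 4 libraries. All 6 mesenchymal markers were higher in HMLE-Twist and all 6 basal epithelial markers were lower, under either treatment. Over all genes tested 36.2% were higher and 37.3% lower under mock, and 31.4% and 32.1% under salinomycin. Of the 6 basal markers, 4 passed the filter of 1 FPKM in 3 libraries through HMLE-pBp alone and so had to differ. ZEB1, among the mesenchymal markers, passed it through HMLE-Twist alone. TWIST1 is among these markers too, and as the gene that names the line its higher level carries no weight of its own. The basal markers, KRT5, KRT14, KRT17, CDH1, EPCAM and CDH3, summed to 2.57 to 4.24 FPKM in HMLE-Twist under salinomycin and 4.44 to 8.45 FPKM in its mock libraries. In HMLE-pBp they summed to 2785 to 2994 FPKM under salinomycin and 3212 to 3680 FPKM under mock, so HMLE-pBp carried markers of mammary basal epithelium and HMLE-Twist had almost none of their RNA. HMLE-pBp held luminal markers too. The 5 luminal markers in the tables summed to 38.2 to 44.9 FPKM in HMLE-Twist under salinomycin and 32.7 to 44.5 FPKM in its mock libraries, against 422 to 472 FPKM in HMLE-pBp under salinomycin and 463 to 570 FPKM under mock, and all 3 that were tested were lower in HMLE-Twist. KRT18 and KRT8, keratins of simple epithelium, led them, at 343 ± 25.8 and 176 ± 28.8 FPKM in HMLE-pBp mock. FOXA1, 1 of the 3 tested, passed the filter through HMLE-pBp alone and so had to differ. The 4 leukocyte markers in the tables summed to 1.23 to 1.36 FPKM in HMLE-Twist under salinomycin and 0.658 to 1.83 FPKM in its mock libraries, against 6.30 to 15.3 FPKM in HMLE-pBp under salinomycin and 19.2 to 29.2 FPKM under mock. Nearly all of it was CD14, a lipopolysaccharide co-receptor, which was lower in HMLE-Twist mock (log2 fold change -3.40) and fell under salinomycin in HMLE-pBp (-0.998, adjusted p = 0.0253, limma), a call lost with a pseudocount of 0.1 and without the filter on low values. PTPRC, the general leukocyte marker, had no read in HMLE-pBp and at most 0.0145 FPKM as a group mean in HMLE-Twist, and CD3E had 1 read in all 12 libraries. The 5 endothelial markers summed to 1.27 to 1.86 FPKM in HMLE-Twist under salinomycin and 0.771 to 1.496 FPKM in its mock libraries, against 0.0580 to 0.109 FPKM in HMLE-pBp under salinomycin and 0.0358 to 0.102 FPKM under mock. KDR, a VEGF receptor, was the 1 tested, having passed the filter through HMLE-Twist alone, and was higher in HMLE-Twist mock (0.82). CDH5 had at most 1 read in any group. The part of these other markers in the results was not tested.

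Without drug, HMLE-Twist cells held almost no RNA of 9 of the 10 genes, while GRHL1 was 1.42-fold lower than in HMLE-pBp (pooled reads, exact 95% counting interval 1.28 to 1.58). All 10 were lower in HMLE-Twist mock than in HMLE-pBp mock with limma at an adjusted p under 0.05, where 37.3% of the 11854 genes tested were lower, 36.2% higher and 73.5% differed in either direction. The sum of the 10 genes was 2.98 ± 0.41 FPKM in HMLE-Twist mock and 117.8 ± 2.40 FPKM in HMLE-pBp mock (SD, n = 3 each). Under salinomycin it was 2.30 ± 0.30 FPKM in HMLE-Twist and 129.8 ± 4.17 FPKM in HMLE-pBp. All 10 were again lower, where 32.1% of genes were lower, 31.4% higher and 63.5% differed in all. No library of HMLE-Twist reached any HMLE-pBp library of the same treatment for any of the 10. Such a gap on the lower side held for 37.2% of genes under mock and 34.8% under salinomycin, and on the higher side for 36.8% and 35.1%. All 10 passed the filter of 1 FPKM in 3 libraries, but 9 of them did so through HMLE-pBp alone and had to differ, so the counts carry no weight of their own. In bulk RNA, fewer cells that express a gene and less RNA per cell cannot be told apart.

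**Figure D1:**
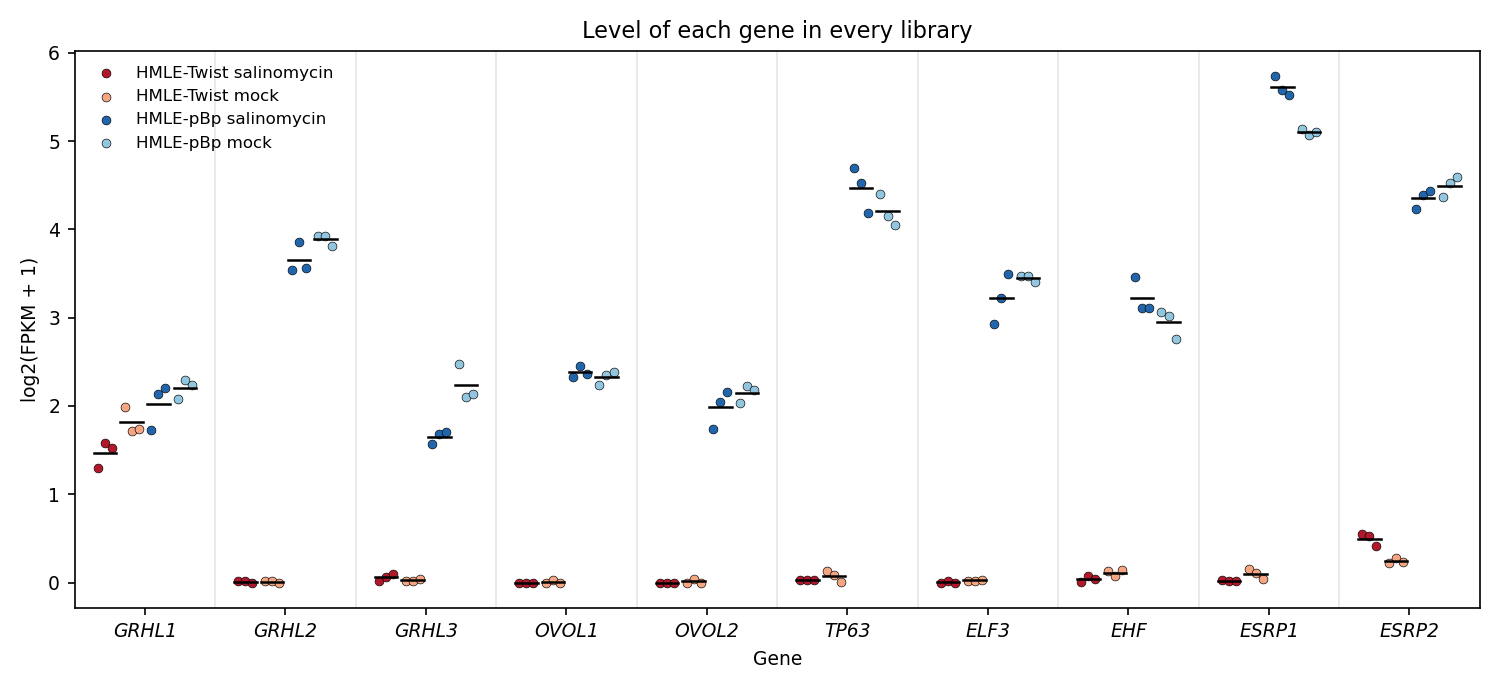
Level of the 10 genes as log2(FPKM + 1), on the vertical axis, in each of the 12 libraries (points) with the group mean (line). The groups run from HMLE-Twist salinomycin to HMLE-pBp mock. Only GRHL1 keeps its HMLE-Twist points near those of HMLE-pBp, and ESRP2 is the other gene whose HMLE-Twist points stand clear of 0.

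GRHL2, the family member that switches on CDH1 and claudin genes, had 1, 1 and 0 reads in the HMLE-Twist mock libraries, against 1490, 1241 and 1549 reads in HMLE-pBp mock. Its levels in HMLE-pBp mock were 14.2, 14.2 and 13.1 FPKM. Scaled and pooled, the reads in HMLE-Twist mock were 2516-fold lower (exact 95% counting interval 696 to 20782), an interval that covers counting error only. No HMLE-Twist library came near any HMLE-pBp library, and the log2 fold change was -3.88 ± 0.09 (SE).

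GRHL3, which acts in surface epithelium and barrier formation, had 1, 1 and 3 reads in HMLE-Twist mock, against 313, 188 and 264 reads in HMLE-pBp mock. Its pooled reads were 180-fold lower in HMLE-Twist mock (interval 76.7 to 556). The groups did not overlap. In HMLE-pBp mock GRHL3 reached 4.56, 3.28 and 3.41 FPKM, about the level of GRHL1 in the same cells.

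GRHL1, known for desmosomal genes in skin, was the exception. It had 1.45, 1.98 and 1.88 FPKM in HMLE-Twist under salinomycin and 2.96, 2.29 and 2.35 FPKM in HMLE-Twist mock. In HMLE-pBp it had 2.32, 3.40 and 3.62 FPKM under salinomycin and 3.21, 3.90 and 3.70 FPKM under mock. The lines did not overlap under either treatment, though the gap was narrow in both. The log2 fold change between the lines was -0.38 ± 0.13 under mock (adjusted p = 0.0217, limma) and -0.56 ± 0.13 under salinomycin (adjusted p = 0.00299). Under mock the call was lost with any of 4 libraries left out, at adjusted p = 0.0732 and 0.0598 without HMLE-Twist mock replicate 2 or 3 and 0.0739 and 0.0587 without HMLE-pBp mock replicate 2 or 3, and at 0.0770 with scaling by total reads. Its call under salinomycin held in each of 16 alternatives.

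These unequal differences changed the make-up of the GRHL family. GRHL1 supplied 97.5 ± 1.03% of the summed GRHL FPKM in HMLE-Twist under salinomycin and 99.0 ± 0.28% in HMLE-Twist mock. It supplied 18.3 ± 3.11% in HMLE-pBp under salinomycin and 17.1 ± 2.13% in HMLE-pBp mock (SD, n = 3 each). In HMLE-pBp the largest share was that of GRHL2, 68.9 ± 3.54% under salinomycin and 65.3 ± 0.97% under mock. The GRHL sum itself was 1.82 ± 0.30 and 2.56 ± 0.37 FPKM in HMLE-Twist under salinomycin and mock, against 16.9 ± 2.07 and 21.2 ± 0.90 FPKM in HMLE-pBp.

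OVOL1 and OVOL2 encode zinc finger repressors that hold down ZEB1 and other mesenchymal genes. Each had a single read in HMLE-Twist mock, in replicate 2 for both, and none in the 3 salinomycin libraries of that line. In HMLE-pBp mock OVOL1 had 226, 207 and 288 reads (3.73, 4.10 and 4.21 FPKM) and OVOL2 had 115, 114 and 148 reads (3.08, 3.67 and 3.52 FPKM). Under mock the pooled reads in HMLE-Twist were 848-fold lower for OVOL1 (interval 152 to 33528) and 443-fold lower for OVOL2 (interval 79.1 to 17553). Under salinomycin they were at least 296-fold lower for OVOL1 and at least 128-fold lower for OVOL2, taking 3 reads over the group as the most that a count of 0 allows. ZEB1 itself had 19.5 ± 2.83 and 23.9 ± 4.20 FPKM in HMLE-Twist under salinomycin and mock, against 0.118 ± 0.0562 and 0.0528 ± 0.00517 FPKM in HMLE-pBp (SD, n = 3 each). OVOL1-AS1, the antisense gene beside OVOL1, had no reads in HMLE-Twist and 4 reads in each HMLE-pBp group; the library kit keeps strand, but whether the counting used it is not given in the sources used here.

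TP63 had 13, 8 and 1 reads in HMLE-Twist mock, against 2633, 1836 and 2306 reads in HMLE-pBp mock (20.1, 16.8 and 15.6 FPKM). Its pooled reads were 362-fold lower in HMLE-Twist mock (interval 239 to 578) and the groups did not overlap. Reads per gene do not show which of its starts or isoforms were used.

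The ETS pair was low in the same way. ELF3 had 1, 1 and 2 reads in HMLE-Twist mock and 660, 547 and 705 reads in HMLE-pBp mock (10.1, 10.1 and 9.60 FPKM), and was 562-fold lower in pooled reads (interval 219 to 2065). EHF had 11, 6 and 16 reads in HMLE-Twist mock and 835, 671 and 734 reads in HMLE-pBp mock (7.38, 7.11 and 5.75 FPKM), and was 79.8-fold lower (interval 56.7 to 116). The recovered length of EHF was 1.29 times that of the nearest reference transcript, and those of GRHL3, OVOL2 and TP63 were 0.87, 0.85 and 0.88 times, which bears on their FPKM against other genes but not on their ratios between groups.

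The splicing regulators were the most abundant of the 10 in HMLE-pBp together with TP63. ESRP1 had 0.110, 0.0776 and 0.0282 FPKM in HMLE-Twist mock, from 9, 6 and 3 reads, against 34.3, 32.5 and 33.4 FPKM in HMLE-pBp mock. Its log2 fold change between the lines was -5.00 ± 0.08 (adjusted p = 8.73e-14, limma), and its pooled reads were 494-fold lower in HMLE-Twist mock (interval 312 to 834). ESRP2 had 0.162, 0.208 and 0.178 FPKM in HMLE-Twist mock, from 14, 17 and 20 reads, and 19.6, 22.1 and 23.2 FPKM in HMLE-pBp mock, 119-fold lower in pooled reads (interval 90.6 to 160). Both groups of values stood far apart for either gene.

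**Figure D2:**
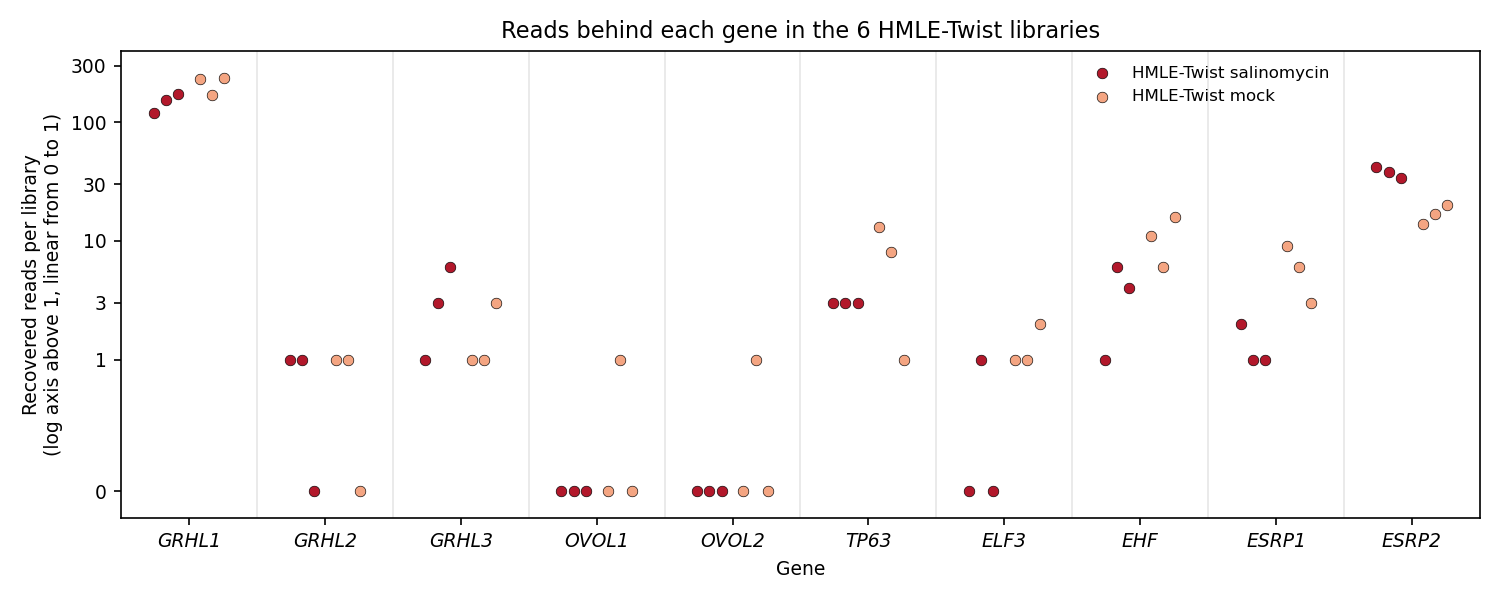
Recovered reads of the 10 genes in the 3 salinomycin and 3 mock libraries of HMLE-Twist (points), on a log axis above 1 read. GRHL1 has 119 to 237 reads and ESRP2 14 to 42, while the other 8 genes have at most 16 in any library.

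The order of levels differed between the lines. In HMLE-pBp mock ESRP1 (33.4 FPKM) stood above ESRP2 (21.6) and TP63 (17.5), whose libraries overlapped, then came GRHL2 (13.8), ELF3 (9.93) and EHF (6.75), each clear of the next. OVOL1 (4.01), GRHL3 (3.75), GRHL1 (3.60) and OVOL2 (3.42) followed, each overlapping its neighbour. Under salinomycin ESRP1 (48.0 FPKM) again led, TP63 (21.4) overlapped ESRP2 (19.5), EHF (8.43) overlapped ELF3 (8.42), and GRHL3 (2.14) stood last, below all libraries of OVOL2 (2.98). In HMLE-Twist under both treatments GRHL1 came first and ESRP2 second, each clear of the gene after it. The other 8 genes lay at group means of at most 0.0814 FPKM, where neighbours overlapped except ESRP1 and GRHL2 under salinomycin, a gap that rests on 4 and 2 reads.

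The pair of ESRP genes also changed places. The ratio of ESRP1 to ESRP2 FPKM was 0.0364 ± 0.0122 in HMLE-Twist under salinomycin and 0.404 ± 0.262 in HMLE-Twist mock, so ESRP2 led in all 6 libraries. It was 2.48 ± 0.40 in HMLE-pBp under salinomycin and 1.55 ± 0.17 in HMLE-pBp mock, so ESRP1 led in all 6 (SD, n = 3 each).

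**Figure D3:**
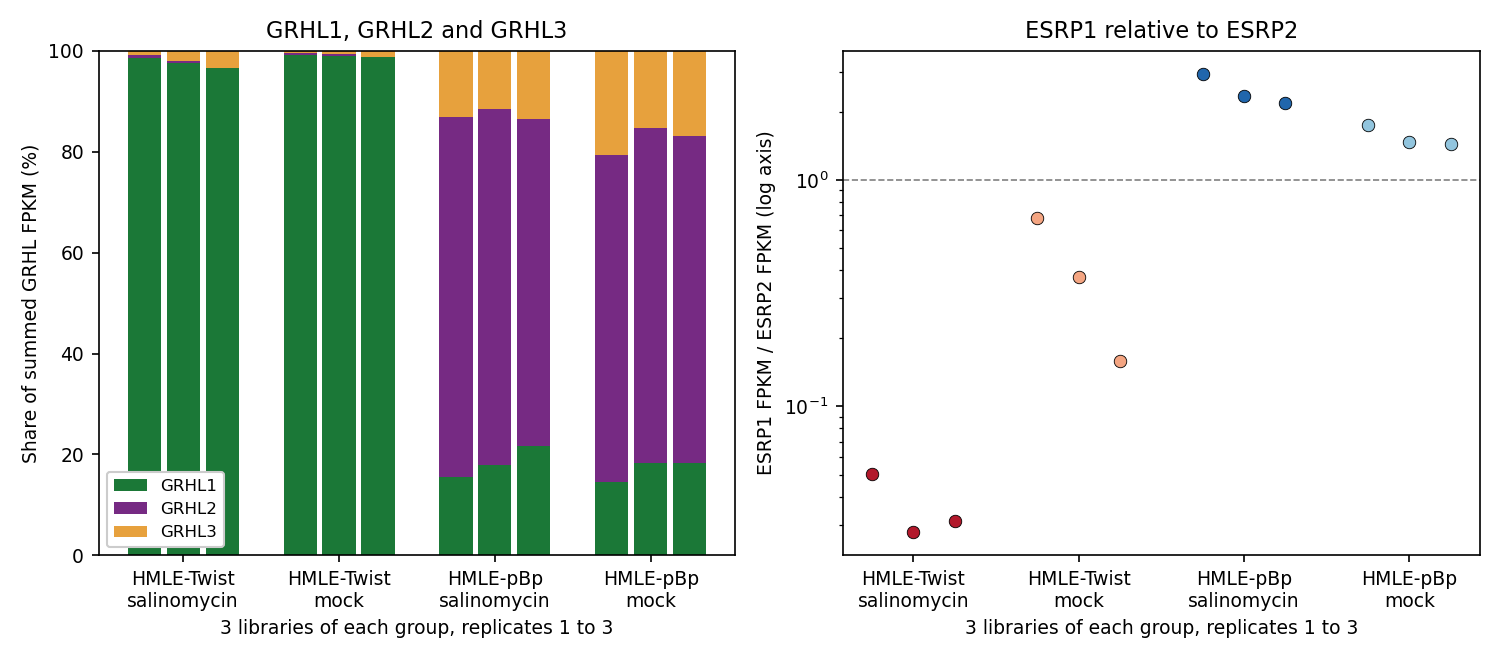
Left, the share of summed GRHL FPKM from GRHL1, GRHL2 and GRHL3 in each library, stacked to the whole sum. Right, the ratio of ESRP1 to ESRP2 FPKM per library on a log axis, with a dashed line at 1. GRHL1 holds 96.5% or more in every HMLE-Twist library, and ESRP1 exceeds ESRP2 in HMLE-pBp libraries alone.

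In HMLE-pBp salinomycin moved the 10 genes in both directions. ESRP1 rose and GRHL3 fell, the only 2 of 10 past the threshold, where 9.79% of genes rose and 9.37% fell (19.2% in either direction). ESRP1 had 52.3, 46.7 and 44.9 FPKM in HMLE-pBp under salinomycin, against 34.3, 32.5 and 33.4 FPKM under mock. Every treated library lay above every mock library, and the log2 fold change was 0.51 ± 0.08 (adjusted p = 0.00109, limma). The pooled reads were 1.44 times those of mock (interval 1.40 to 1.48). The call held in each of 18 alternatives, with adjusted p of 3.18e-04 to 0.0456 for ESRP1.

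GRHL3 had 1.97, 2.21 and 2.25 FPKM in HMLE-pBp under salinomycin, against 4.56, 3.28 and 3.41 FPKM under mock. The highest treated library lay below the lowest mock library, and the log2 fold change was -0.59 ± 0.10 (adjusted p = 0.00221, limma). Its call held in each of 17 alternatives. On the scale of FPKM + 1 the change of so low a gene is understated, and it was -0.80 by limma voom on the recovered reads. GRHL2 and GRHL1, its relatives, did not pass: GRHL2 had 10.7, 13.5 and 10.8 FPKM under salinomycin and 14.2, 14.2 and 13.1 FPKM under mock, a log2 fold change of -0.23 ± 0.09 (adjusted p = 0.0869), and GRHL1 one of -0.17 ± 0.13. The share of GRHL3 in the GRHL sum was 12.7 ± 1.01% in HMLE-pBp under salinomycin and 17.7 ± 2.78% under mock.

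The libraries of a line shared a replicate number across treatments and deviated together, so the fit with the replicate as a block within each line was also run. It called 5 of the 10 genes in HMLE-pBp, against a background of 36.7% of genes called, 17.4% higher and 19.3% lower. EHF (0.28 ± 0.08, adjusted p = 0.0282) and TP63 (0.26 ± 0.07, adjusted p = 0.0236) joined ESRP1 among those that rose, and GRHL2 (-0.23 ± 0.08, adjusted p = 0.0446) joined GRHL3 among those that fell. Without the block EHF (adjusted p = 0.0983) and TP63 (adjusted p = 0.155) did not pass.

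TP63 had 24.9, 22.0 and 17.2 FPKM in HMLE-pBp under salinomycin and 20.1, 16.8 and 15.6 FPKM under mock. The groups overlapped, yet each treated library was above the mock library of the same number. EHF had 10.0, 7.61 and 7.65 FPKM under salinomycin and 7.38, 7.11 and 5.75 FPKM under mock, with no overlap. In this line 3 genes did not overlap, ESRP1 and EHF on the higher side and GRHL3 on the lower, where 20.3% of genes lay wholly higher and 21.2% wholly lower.

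ELF3 had 6.63, 8.35 and 10.3 FPKM in HMLE-pBp under salinomycin and 10.1, 10.1 and 9.60 FPKM under mock, a log2 fold change of -0.23 ± 0.12 (adjusted p = 0.175, limma). Treated replicate 3 alone lay above the mock libraries. Without it ELF3 (adjusted p = 0.0218) and TP63 (adjusted p = 0.0269) passed, and without treated replicate 2 GRHL2 did (adjusted p = 0.0216). ESRP2 had 17.8, 20.02 and 20.7 FPKM under salinomycin and 19.6, 22.1 and 23.2 FPKM under mock (-0.14 ± 0.09, adjusted p = 0.274). OVOL1 had 4.03, 4.47 and 4.15 FPKM under salinomycin and 3.73, 4.10 and 4.21 FPKM under mock (0.06 ± 0.07), and OVOL2 had 2.34, 3.14 and 3.46 FPKM under salinomycin and 3.08, 3.67 and 3.52 FPKM under mock (-0.16 ± 0.10). Those groups overlapped and neither OVOL gene passed in any alternative.

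In HMLE-Twist none of the 10 genes passed, where 26.6% of genes did. ESRP2 came nearest, with 0.459, 0.442 and 0.330 FPKM under salinomycin and 0.162, 0.208 and 0.178 FPKM under mock, from 42, 38 and 34 reads against 14, 17 and 20. All treated libraries lay above all mock libraries. The log2 fold change was 0.25 ± 0.09 (adjusted p = 0.0513, limma), and with the replicate block within each line it passed (0.25 ± 0.07, adjusted p = 0.0167). ESRP2 passed in 8 of 18 alternatives, limma voom and a pseudocount of 0.1 among them. Over the 18 its adjusted p ran from 8.64e-04 to 0.521 (limma). On pooled reads, which need no pseudocount, ESRP2 was 2.24 times mock (interval 1.59 to 3.18).

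GRHL1, the only 1 of the 10 above 1 FPKM in HMLE-Twist, had a log2 fold change of -0.35 ± 0.13 (adjusted p = 0.0743), and it passed with the block (-0.35 ± 0.11, adjusted p = 0.0358). Its 3 treated libraries, at 1.45 to 1.98 FPKM, lay below its 3 mock libraries, at 2.29 to 2.96 FPKM. The block thus called 2 of the 10 in HMLE-Twist, where it called 40.8% of all genes, 19.7% higher and 21.1% lower.

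The other 8 genes had too few reads in HMLE-Twist for a fold change on the scale of FPKM + 1 to carry information. Their group totals were 4 reads under salinomycin and 18 under mock for ESRP1, a ratio of 0.222 (interval 0.0547 to 0.675). ESRP1 passed as lower in 1 of 18 alternatives (adjusted p = 0.0255, limma). EHF totalled 11 and 33 reads (0.334, interval 0.152 to 0.677), TP63 9 and 22 reads (0.409, interval 0.166 to 0.925), and ELF3 1 and 4 reads (0.250, interval 0.00508 to 2.53). GRHL3 totalled 10 reads under salinomycin and 5 under mock (2.002, interval 0.623 to 7.46), and GRHL2 had 2 reads in each. These intervals cover counting error only, and of the 8 only ESRP1 and EHF had no overlap in FPKM, where EHF reached 0.0497 FPKM under salinomycin and at least 0.0524 FPKM under mock. Both of these EHF values came from 6 reads, so the gap rests on the scaling of the libraries.

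ESRP1 and TP63 in HMLE-Twist mock were lowest in replicate 3, the library with the highest TWIST1 among the mock libraries, with 3 and 1 reads. EHF was highest there, with 16. The summed basal markers of HMLE-Twist were also lower under salinomycin, at 2.57 to 4.24 FPKM, than under mock, at 4.44 to 8.45 FPKM, and KRT5 fell in this line by 1.07 on the log2 scale. The part of these shifts in the values of ESRP1, EHF and TP63 was not tested.

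Overlap in HMLE-Twist was absent for 4 of the 10 genes, ESRP2 on the higher side and GRHL1, EHF and ESRP1 on the lower, where 19.1% of genes lay wholly higher and 21.3% wholly lower. For EHF the closest libraries held 6 reads each.

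**Figure D4:**
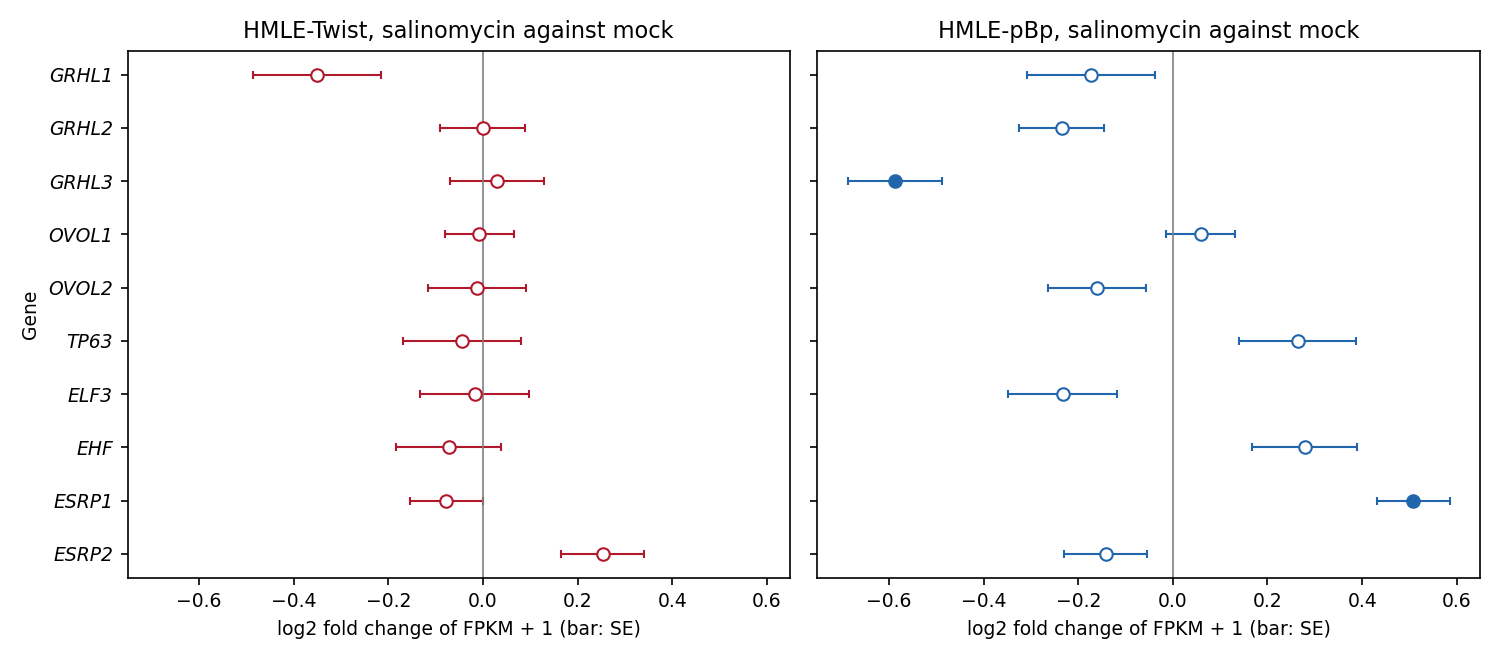
Log2 fold change of FPKM + 1, salinomycin against mock, for the 10 genes in HMLE-Twist and in HMLE-pBp, with bars for the SE of the limma fit without the block. Filled points have an adjusted p under 0.05: ESRP1 (0.51) and GRHL3 (-0.59) in HMLE-pBp.

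The difference of the responses between the lines was then tested. It passed for GRHL3 (HMLE-Twist minus HMLE-pBp, 0.62 ± 0.14, adjusted p = 0.0162) and ESRP1 (-0.59 ± 0.11, adjusted p = 0.00629), 2 of the 10 where 13.8% of genes passed, 7.03% on the higher side and 6.77% on the lower. Both are genes that HMLE-Twist hardly expressed, and a gene near 0 can hardly move on this scale. By limma voom on the recovered reads the difference was 1.49 for GRHL3 (adjusted p = 0.204) and -2.23 for ESRP1 (adjusted p = 0.0443). ESRP2 moved apart between the lines by 0.39 ± 0.12 without the block (adjusted p = 0.0545) and passed with it (adjusted p = 0.0153), as did EHF (-0.35 ± 0.12, adjusted p = 0.0476, against 0.151 without the block). The block called 4 of the 10 differences and 32.6% of those of all genes, 16.9% on the higher side and 15.7% on the lower. Without HMLE-pBp mock replicate 1 or without HMLE-pBp salinomycin replicate 3 the ESRP2 difference also passed (adjusted p = 0.0391 and 0.0488). It passed in 8 of 23 alternatives, limma voom among them, with adjusted p of 0.00789 to 0.177 over the 23 (limma).

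Genes downstream of these factors were read from lists. Of 18 junction and surface genes that GRHL2, OVOL or ESRP factors are known to sustain, 17 were tested and all 17 were lower in HMLE-Twist mock than in HMLE-pBp mock, where 37.3% of all genes were, with a median log2 fold change of -5.41, against -0.00 over all genes tested. Of the 17, 12 had 1 FPKM in fewer than 3 HMLE-Twist libraries, passed the filter through HMLE-pBp and so had to differ. SPINT2, a protease inhibitor, averaged 0.235 ± 0.0497 FPKM in HMLE-Twist mock and 478 ± 49.2 FPKM in HMLE-pBp mock (-8.60 ± 0.09). ST14, the protease matriptase (-7.59), EPCAM, an epithelial adhesion molecule (-7.37), and CDH1, E-cadherin (-7.32), came next. Under salinomycin all 17 were lower again (median -5.46).

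Of 18 genes known as p63 targets in basal epithelium, 17 were tested and 16 were lower in HMLE-Twist mock (median -5.22), where 37.3% of all genes were lower. Of the 17, 6 had passed the filter through HMLE-pBp in the same way. KRT14 (-8.53), COL17A1, a hemidesmosomal collagen (-8.31), KRT5 (-8.23) and ITGB4, the integrin of hemidesmosomes (-7.61), were furthest from 0. DST, picked after its values were seen, was the tested gene that did not pass, with 20.5 ± 5.16 FPKM in HMLE-Twist mock and 19.5 ± 0.45 FPKM in HMLE-pBp mock (0.04 ± 0.13, adjusted p = 0.798).

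Other epithelial transcription factors were less uniform. Of 12 tested, 9 were lower and 3 higher in HMLE-Twist mock (median -0.88), where 37.3% of all genes were lower and 36.2% higher. Of the 12, 3 passed the filter through HMLE-pBp alone and so had to differ, TFCP2L1 and SOX9 among them. TFCP2L1, a relative of the GRHL genes (-5.14), KLF5 (-2.67) and SOX9 (-2.27) were lower. KLF4 (1.11), TBX3 (1.07) and GATA3 (0.72), named after their values were seen, were higher. The widely expressed relatives of the 10 genes went mostly up, with 6 of 10 higher and 2 lower (median 0.33), among them UBP1 (0.83) and GABPA (0.72) higher and ETS2 (-0.63) lower.

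Repressors of epithelial genes showed the reverse picture, 7 of 8 tested being higher in HMLE-Twist mock and 1 lower. Over all genes tested 36.2% were higher and 37.3% lower. TWIST1 (7.58), ZEB1 (4.55), PRRX1 (4.11) and ZEB2 (2.27) led, and TCF4, picked after its values were seen, was the lower one (-0.51 ± 0.09). HMLE-Twist is named after TWIST1, so the higher level of that gene carries no weight of its own. ZEB1, ZEB2, SNAI1 and PRRX1 lay under 1 FPKM in every HMLE-pBp library, passed the filter through HMLE-Twist and so had to be higher. TCF4 lay under 1 FPKM in every HMLE-Twist library, passed through HMLE-pBp and so had to be lower. SNAI2, likewise picked, differed least of the 7, with 30.8 ± 7.65 FPKM in HMLE-Twist mock and 19.4 ± 0.92 FPKM in HMLE-pBp mock.

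For ESRP1 and ESRP2 the lists allow a gene-level view only. Of 14 genes whose exon choice ESRP proteins are known to control, 6 were lower and 4 higher in HMLE-Twist mock (median -0.12), with FGFR2 (-4.14), SLC37A2 (-4.12) and CD44 (-1.75) among the lower ones. Over all genes tested 37.3% were lower and 36.2% higher. FGFR2 passed the filter through HMLE-pBp alone and so had to differ. FGFR2 had 2 reads in HMLE-Twist under salinomycin and 6 under mock, so the receptor whose exons ESRP proteins choose was itself near absent there. Of 15 other splicing regulators tested, 10 were higher and 3 lower in HMLE-Twist mock (median 0.50). KHDRBS3 (1.29), MBNL1 (1.03) and QKI (0.85) were higher and RBM47, which is epithelial (-1.23), was lower. KHDRBS3 passed the filter through HMLE-Twist alone and RBM47 through HMLE-pBp alone, so both had to differ. Levels per gene do not show which exons were used.

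**Figure D5:**
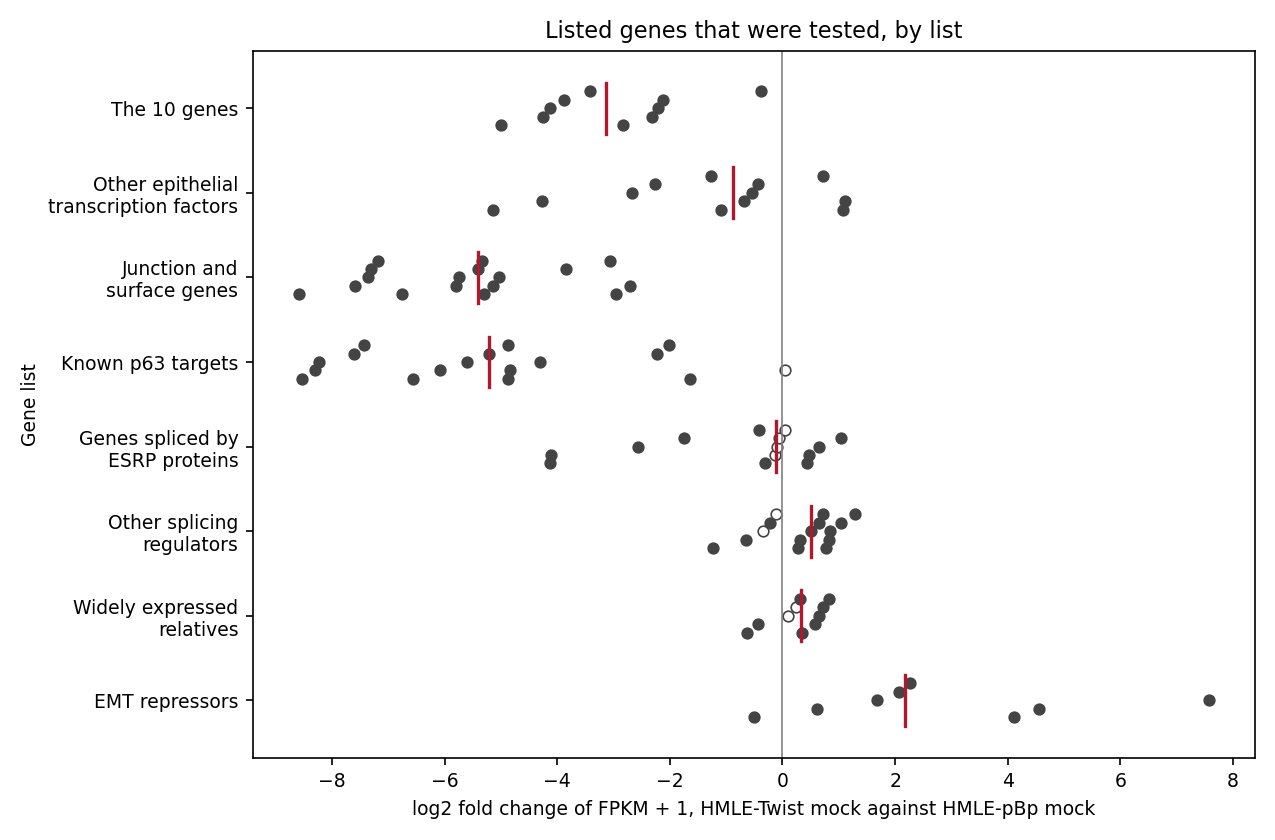
Log2 fold change of FPKM + 1, HMLE-Twist mock against HMLE-pBp mock, for each tested gene of the 10 and of 7 lists (points, filled where the adjusted p is under 0.05), with the list median as a red line. The medians of junction genes (-5.41), p63 targets (-5.22) and the 10 genes (-3.13) lie below 0 and that of EMT repressors (2.17) above it; by limma voom on the recovered reads the first 3 were -8.41, -7.46 and -8.13, so their order depends on the scale.

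Under salinomycin the medians of the 7 lists lay between -0.20 and 0.23 in either line. In HMLE-pBp 6 of 17 junction and surface genes fell and 1 rose (median -0.15, against -0.01 over all genes), where 9.37% of all genes fell and 9.79% rose. With a pseudocount of 0.1 3 fell and 1 rose, where 950 of 11854 genes fell and 1092 rose. With the block 7 fell and 1 rose. Over all genes the block called 19.3% lower and 17.4% higher in HMLE-pBp, the background for each block count below in this line. PRSS8, the protease prostasin, rose to 94.98 ± 5.22 FPKM under salinomycin, against 56.5 ± 7.94 FPKM under mock (0.75 ± 0.10, adjusted p = 4.39e-04), while CGN, cingulin of tight junctions (-0.66), ST14 (-0.65) and EPCAM (-0.62) fell. CDH1 did not pass (0.10 ± 0.08). None of 17 p63 targets passed in HMLE-pBp, with 1 higher and 3 lower in the fit with the block. Of genes spliced by ESRP proteins 3 of 14 fell and none rose, led by FGFR2, with 9.85 ± 2.42 FPKM under salinomycin and 16.9 ± 1.22 FPKM under mock (-0.74 ± 0.14, adjusted p = 0.00355). With the block 6 fell and 1 rose. Among other epithelial transcription factors TFCP2L1 (-0.78) and FOXA1 (-0.50) fell and ELF4 rose (0.44), and with the block 3 rose and 2 fell. Of the repressors and of the other splicing regulators none passed there, and with the block 1 rose in each list. Of the widely expressed relatives ETS1 (0.55) and ELF4 rose, and with the block 4 of 10 did.

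In HMLE-Twist, where 12.9% of all genes rose and 13.7% fell, some listed genes passed. Of 12 other epithelial transcription factors 6 rose and 1 fell (median 0.23, against -0.01 over all genes), led by ETV4 (0.88), TBX3 (0.62), TFAP2C (0.59) and KLF4 (0.49). Among p63 targets 4 of 17 rose and 2 fell. LAMB3, a laminin chain, rose to 35.8 ± 8.90 FPKM under salinomycin, against 9.87 ± 0.0469 FPKM under mock (1.73 ± 0.15, adjusted p = 1.65e-05), ITGA3 (0.83) rose too, and KRT5 fell (-1.07 ± 0.19). TP63 had 9 reads in the same treated libraries. Of genes spliced by ESRP proteins 4 of 14 rose and 2 fell, with SLC37A2 (0.84) and CD44 (0.76) among those that rose and ENAH (-0.72) among those that fell.

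Of 8 repressors SNAI1 alone passed in HMLE-Twist, with 1.83 ± 0.15 FPKM under salinomycin and 3.65 ± 0.33 FPKM under mock (-0.71 ± 0.08, adjusted p = 1.01e-04), and with the block 1 rose and 2 fell. ZEB1 (-0.28 ± 0.13) and TWIST1 (0.41 ± 0.26) did not pass. Over all genes the block called 19.7% higher and 21.1% lower in HMLE-Twist. Of 15 other splicing regulators PTBP2 (-0.71), RBMS3 (-0.38) and SRSF1 (-0.32) fell and none rose, and with the block 6 fell. Of 17 junction genes CLDN1 rose (0.95 ± 0.20) and CGN fell (-0.49 ± 0.12), and with the block 2 rose and 2 fell. Of the relatives ELF4 rose (0.36), and with the block 2 rose and 1 fell.

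The genes whose pattern over the 12 libraries lay closest to the mean pattern of the 10 were TENM4, TMTC2, INADL, VANGL2 and WNT7A. The measure was the root mean square distance between log2(FPKM + 1) values, each centred on its own mean, and it ran from 0.0613 for TENM4 to 0.0927 for WNT7A. EHF, the member closest to that mean, lay at 0.167 and so farther than any of the 5. TENM4 averaged 0.0337 ± 0.00570 and 0.0168 ± 0.00876 FPKM in HMLE-Twist under salinomycin and mock, against 7.73 ± 0.81 and 7.95 ± 0.66 FPKM in HMLE-pBp. WNT7A had no reads in HMLE-Twist and 6.98 ± 1.06 and 7.42 ± 0.80 FPKM in HMLE-pBp under salinomycin and mock (SD, n = 3 each).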

How the data were processed

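Gene-level reads from 12 stranded mRNA libraries were analysed. The authors deposited 4 tables, 1 per group. By their names they hold FPKM, but only the mock tables do, and the deposited salinomycin tables hold shrunk log2 values, each table scaled on its own 3 libraries. The submitters' processing notes name DESeq2 (1.1.0) and hg19; which aligner and counter were used is not given in the sources used here.

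Whole reads were recovered from the steps of the mock FPKM and by inverting the shrinkage of the log2 values. Of the salinomycin values 97.1% (HMLE-Twist) and 95.1% (HMLE-pBp) fell within 0.1 of a whole read, and those of the 10 genes within 0.0141 and 0.119. 681 genes with unsettled reads, none of the 10, and 7 names not alike in the tables were left out. FPKM was rebuilt with median-of-ratios size factors over 12 libraries. Genes with FPKM of at least 1 in 3 libraries (11854) were tested by limma 3.58.1 in R 4.3.3 on log2(FPKM + 1), 4 groups in 1 fit, with the Benjamini-Hochberg adjustment within each of 5 contrasts. The fit was tested on simulated data.

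Same-numbered libraries of a line deviated together across treatments (correlation of deviations from the group means 0.43 to 0.72 in HMLE-Twist, 0.23 to 0.59 in HMLE-pBp), so the numbers were taken as pairs there. P-values measure the spread between these libraries. The 10 genes and the lists were chosen with earlier results of these data known. From each list at most the 4 called genes with the largest change are named, and others only as stated; some listed genes are not reported here. Alternatives covered pseudocount, filter, scaling, TPM, limma voom, lengths, block and left-out libraries.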

Additional observations from a re-analysis of the deposited data

Results flagged for a closer look

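For 2 of the 10 genes the test of the difference between the salinomycin responses of the lines passed on the log2(FPKM + 1) scale, where a response near 0 in HMLE-Twist was fixed in advance, since both genes lay near 0 there. By limma voom on the recovered reads the difference was 1.49 for GRHL3 (adjusted p = 0.204) and -2.23 for ESRP1 (adjusted p = 0.0443). For GRHL3 the difference, HMLE-Twist minus HMLE-pBp, was 0.62 ± 0.14 on the log2(FPKM + 1) scale (adjusted p = 0.0162, limma), from a response of 0.03 ± 0.10 in HMLE-Twist and -0.59 ± 0.10 in HMLE-pBp. All 3 treated HMLE-pBp libraries lay below the 3 mock ones, and HMLE-Twist held 10 reads of GRHL3 under salinomycin and 5 under mock.

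For ESRP1 the difference was -0.59 ± 0.11 (adjusted p = 0.00629), from a response of -0.08 ± 0.08 in HMLE-Twist and 0.51 ± 0.08 in HMLE-pBp. All 3 treated HMLE-pBp libraries lay above the 3 mock ones, and HMLE-Twist held 4 reads of ESRP1 under salinomycin and 18 under mock.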

How the results depend on the processing

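Over the 10 genes and 5 contrasts, 881 alternative values kept direction and call, 34 gained the call, 7 lost it and 8 reversed in sign. No reversed value was called in any fit. With a mean FPKM of at least 5 as the filter, 4 of the 10 genes were tested, and 4 were called between the lines under mock and under salinomycin, 1 under salinomycin in each line and 1 for the difference. In HMLE-Twist the count under salinomycin, 0 in the reported fit, was 2 with a pseudocount of 0.1, 1 with scaling by total reads, with TPM, with limma voom and with the 2 groups alone, and 2 with a replicate block shared by the lines or set within each line. In HMLE-pBp the count of 2 became 5, and for the difference 2 became 4, with the block within each line. For the line contrasts the correlation of same-numbered libraries ran from 0.064 to 0.566 under mock and from 0.033 to 0.590 under salinomycin. There the replicate block left all 10 called. Limma voom with the block within each line, chosen after seeing the data, called 3 in HMLE-Twist and 5 in HMLE-pBp. Leaving out 1 library gave counts of 9 to 10 between the lines under mock, 10 each time under salinomycin, 0 each time in HMLE-Twist, 2 to 4 in HMLE-pBp and 2 to 3 for the difference. GRHL2 in HMLE-Twist, -0.000449 in the reported fit, was 0.0241 by voom and -0.00483 to 0.00370 with 1 library left out, above 0 without mock replicate 1 (0.00155) or 2 (0.00193) or salinomycin replicate 3. The difference for OVOL2 was -0.32 by voom and -0.35 by voom with the block within each line, and for ELF3 -1.06 and -1.02. The cause was not tested. Few reads limit 8 of the 10 genes in HMLE-Twist.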

Other observations

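Other epithelial regulators varied in level. ELF5, an ETS factor of mammary alveolar cells, had no reads in HMLE-pBp and at most 0.0171 FPKM as a group mean in HMLE-Twist. ZNF750, an epidermal differentiation factor downstream of p63, had no reads in HMLE-Twist under salinomycin and 0.00485 FPKM in its mock libraries, against 0.538 ± 0.146 and 0.593 ± 0.126 FPKM in HMLE-pBp under salinomycin and mock (SD, n = 3 each), and so was not tested. KLF4 stood higher in HMLE-Twist, with 22.6 ± 2.30 and 15.8 ± 2.07 FPKM under salinomycin and mock, against 8.02 ± 1.24 and 6.74 ± 0.41 FPKM in HMLE-pBp. These genes were picked after their values were seen.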
